A study of Mus musculus with 12 samples.

Results

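The laminins, nidogens and basement membrane proteoglycans examined here are the products of 10 genes. They are the laminin alpha chain genes Lama2, Lama4 and Lama5, the beta chain genes Lamb1 and Lamb2, the gamma chain gene Lamc1, the nidogen genes Nid1 and Nid2, and the genes of perlecan (Hspg2) and agrin (Agrn). They were chosen by name: every probe set whose annotation names 1 of these genes was taken, which gave 21 of the 45037 probe sets tested and 10 of the 18193 genes named. RNA was measured on 12 Affymetrix mouse expression arrays, 3 in each of 4 groups. The groups were STHdhQ111/Q111 striatal cells heat-shocked at 42 °C for 6 h, STHdhQ111/Q111 cells grown at 33 °C, STHdhQ7/Q7 striatal cells heat-shocked in the same way, and STHdhQ7/Q7 cells grown at 33 °C. STHdhQ111/Q111 cells (Q111 below) were derived from knock-in mouse embryos that carry an expanded glutamine repeat in huntingtin, the protein altered in Huntington's disease, and STHdhQ7/Q7 cells (Q7 below) from wild-type embryos. All 4 groups were grown in medium with fetal bovine serum and G418. Each genotype was 1 cell line, so genotype and line cannot be told apart. Lines of this name are known to be immortalised with a temperature-sensitive large T antigen. All groups would carry it, but its activity may differ between 33 °C and 42 °C. Such a difference cannot be told apart from heat shock here and was not tested. The series asks how huntingtin with an expanded repeat alters genome binding by HSF1, the main transcription factor of the heat shock response, and these arrays are its RNA measurements.

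A laminin is a trimer of 1 alpha, 1 beta and 1 gamma chain that is assembled inside the cell, secreted, and polymerised into a sheet on the cell surface. Nidogens and perlecan link that sheet to the collagen IV network, and agrin and perlecan carry heparan sulfate chains that bind growth factors. Cells hold the sheet through integrins and dystroglycan. In the brain, basement membranes lie mainly around blood vessels and at the pial surface, and laminin is also a common substrate for cultured neural progenitors.

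Levels below are the deposited log2 values, in which a difference of 1 is a 2-fold change. A gene was called changed at a Benjamini-Hochberg adjusted p below 0.05 over all 45037 probe sets in limma. Where a gene has several probe sets, the one with the highest mean level stands for it and the others are given beside it. Levels of different probe sets were not compared with each other. A background range was set from 27 probe sets for bacterial RNAs that are not added to samples, and it ended at a log2 level of 5.14. Of the 21 probe sets, 16 had a mean level above that range. The labels do not say whether the 3 arrays of a group came from separate cultures, so p-values measure the spread between these arrays, which may be technical. Their number limits the precision.

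Array medians lay between 5.57 and 5.73. The level of actin 3′ minus 5′ probe sets, taken here as a proxy for RNA degradation, moved with heat shock. It averaged 1.25 ± 0.23 in heat-shocked Q111 cells and 0.72 ± 0.36 in Q111 cells at 33 °C. In Q7 cells it averaged 1.48 ± 0.12 after heat shock and 0.54 ± 0.16 at 33 °C (log2 difference, SD, n = 3 each). Whether degradation itself differed was not tested. Huntingtin RNA (Htt) had a log2 difference of -1.29 between Q111 and Q7 cells at 33 °C (SE 0.17, adjusted p = 0.000575), and its probe set does not show the repeat length. Of 7 endothelial markers, 1 had a mean above the background range in heat-shocked Q111 cells and 0 in each of the other groups. Of 7 fibroblast and pericyte markers, 6 were above it in heat-shocked Q111 cells and 5 in each of the other groups. Of 7 striatal projection neuron markers, 3 were above it in heat-shocked Q111 cells and 1 in Q111 cells at 33 °C, against 4 in heat-shocked Q7 cells and 3 in Q7 cells at 33 °C, with Rgs9 above it and Ppp1r1b and Drd2 within it in all 4 groups. Of 6 neural progenitor markers, 4 were above that range in heat-shocked Q111 cells and 3 in Q111 cells at 33 °C, against 6 in each Q7 group, with Sox2 and Fabp7 in the range in both Q111 groups.

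Heat shock lowered most of these genes in both lines. In Q111 cells 8 of the 10 genes and 14 of the 21 probe sets were lower after heat shock and 0 were higher, with a median log2 difference of -1.21 over the 21 probe sets, beside a median of 0.05 over all probe sets. Over all 45037 probe sets, 22.3% were called lower and 19.8% higher in Q111 cells. Of the 25958 with a mean above the background range, 34.1% were lower and 19.2% higher (median -0.21). Of the 16 member probe sets above that range, 13 were lower (median -1.46). In Q7 cells 7 of the 10 genes and 12 of the 21 probe sets were lower and 0 were higher, with a median of -1.11, beside 0.02 over all probe sets. Over all probe sets, 14.1% were called lower and 10.0% higher in Q7 cells. Above the background range, 21.2% were lower and 14.9% higher (median -0.07). Of the 16 member probe sets above it, 12 were lower in Q7 cells (median -1.58). The list counts below stand beside the shares of all probe sets, and the shares called lower above the background range are larger. In each line 15 of the 21 probe sets had every heat-shocked array below every 33 °C array, beside 25.6% of all probe sets in Q111 cells and 23.7% in Q7 cells. With the replicate number as a block in the Q111 groups, a pairing that is uncertain, 12 probe sets were called lower, beside 18.3% of all probe sets. The beta and gamma chains Lamb1, Lamb2 and Lamc1 and both nidogens were called lower in both lines, as was agrin, with Nid1 in Q111 cells turning sign relative to the median of all genes. Of the 3 alpha chains, Lama4 was called lower in Q111 cells and Lama2 in Q7 cells, and Lama5 in neither by its brightest probe set. Fewer cells of a type and less RNA per cell cannot be told apart in such bulk samples. The median of all genes is taken here as an array's median level over the brightest probe set of each gene. Its group mean was 0.73 lower after heat shock in Q111 cells and 0.35 lower in Q7 cells. This is a shift of array medians, not the median change of a gene. Relative to that shift, the median over the 21 probe sets was -0.49 in Q111 cells, with 10 called lower and 3 higher, and -0.76 in Q7 cells, with 10 lower and 0 higher. On that scale 9.86% of all probe sets were called lower and 62.6% higher in Q111 cells, and 8.47% lower and 21.1% higher in Q7 cells. With the actin difference as a covariate, the median was -1.19 in Q111 cells, with 9 probe sets called lower, beside 10.6% of all probe sets. With that covariate the median in Q7 cells was -1.14 and 0 probe sets were called, beside 0.404% of all probe sets called lower, and the median SE was 0.54, against 0.27 without it.

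**Figure D1:**
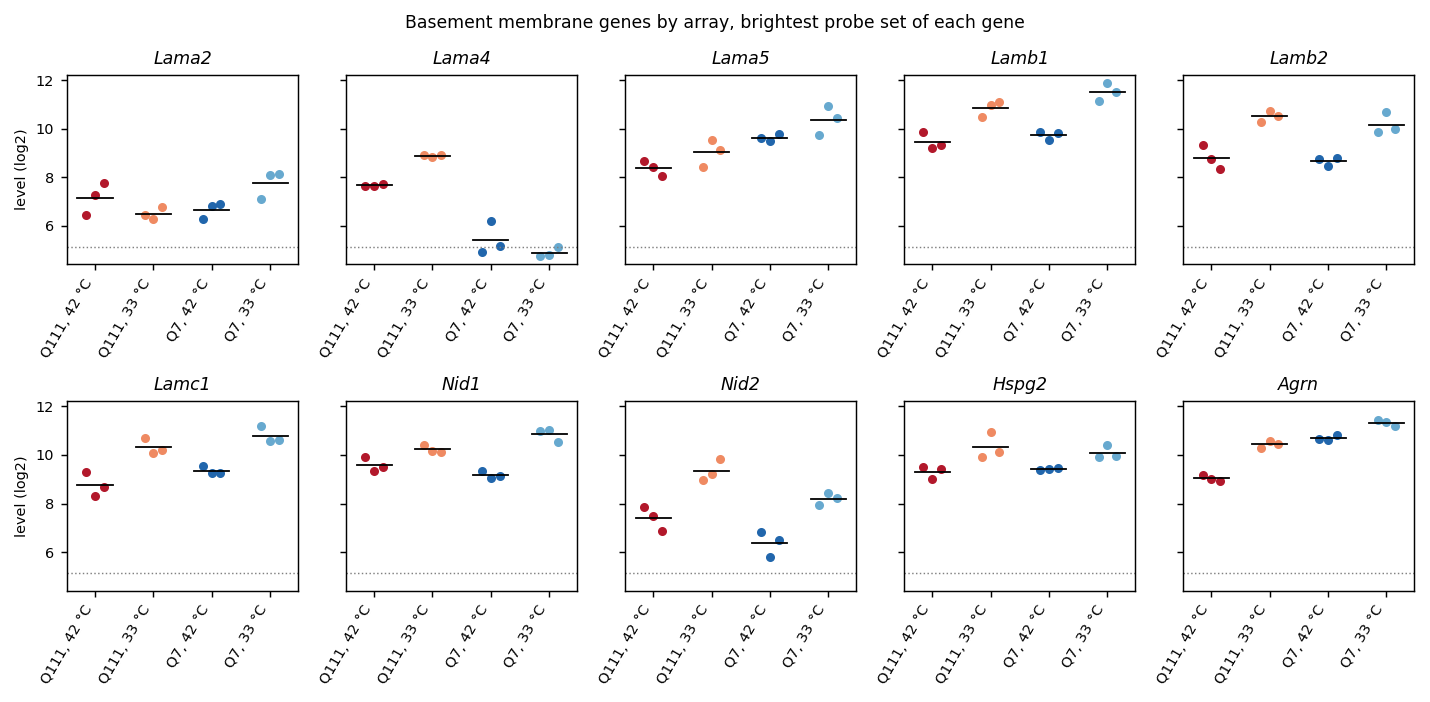
Log2 level of each gene's brightest probe set on every array (points) with the group mean (bar), for Q111 cells at 42 °C and 33 °C and Q7 cells at 42 °C and 33 °C, 3 arrays each; the dotted line at 5.14 is the end of the background range. Lamb1, Lamb2, Lamc1, Nid1, Nid2 and Agrn have all heat-shocked arrays below the 33 °C arrays of their line as deposited, although the Nid1 difference in Q111 cells turns sign relative to the median of all genes, while Lama4 is high in Q111 cells and near or in the background range in Q7 cells.

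Because most of these genes fell together, the sequence just before their start sites was searched, both strands, for the core of a heat shock element in its 2 arrangements (GAANNTTC and TTCNNGAA, which may overlap each other), for the GC box GGGCGG and for the TATA box TATAAA. RefSeq promoter entries (build GRCm38.p6) matched 7 of the 10 genes in 8 entries, 2 of them for Agrn. GAANNTTC was found in the 250 bases before the start in 1 of the 8, that of Lama2, beside 6.69% of 32851 promoters. TTCNNGAA was in 0 of the 8, beside 7.17%, and TATAAA in 0, beside 12.4%. GGGCGG was in 6 of the 8, beside 32.7%, and was not found in those of Lama2 and Lamb2. The share of G and C ran from 43.6% to 83.6%, around a median of 52.4% over all promoters. Lama2 is shown over 250 bases (chr10:27616943-27617192, minus strand), since it holds the heat shock core in this window, GAACCTTC beginning at position -230 from the start. Lamb1 (chr12:31265193-31265292, plus strand), Nid1 (chr13:13437502-13437601, plus strand) and Hspg2 (chr4:137468703-137468802, plus strand) are shown over the 100 bases nearest the start, to give the GC boxes of a beta chain, a nidogen and perlecan. Capitals mark the match to GAANNTTC in Lama2 and the matches to GGGCGG or its reverse complement in the others. A match describes letters, not a site.
Lama2: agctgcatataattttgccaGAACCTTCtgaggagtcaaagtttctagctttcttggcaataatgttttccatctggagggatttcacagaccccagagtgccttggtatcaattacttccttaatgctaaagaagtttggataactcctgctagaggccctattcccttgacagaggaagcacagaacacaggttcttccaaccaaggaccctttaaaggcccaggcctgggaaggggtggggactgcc
Lamb1: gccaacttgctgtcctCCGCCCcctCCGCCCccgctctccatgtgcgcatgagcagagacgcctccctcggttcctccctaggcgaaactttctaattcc
Nid1: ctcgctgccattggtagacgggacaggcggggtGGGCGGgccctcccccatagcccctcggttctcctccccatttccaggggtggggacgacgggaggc
Hspg2: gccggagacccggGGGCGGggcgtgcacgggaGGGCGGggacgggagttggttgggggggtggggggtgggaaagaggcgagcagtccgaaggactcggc

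Lamc1, the gamma chain shared by most laminins, had log2 levels of 9.30, 8.30 and 8.68 in heat-shocked Q111 cells, against 10.69, 10.10 and 10.19 in Q111 cells at 33 °C. In Q7 cells it stood at 9.56, 9.24 and 9.25 after heat shock, against 11.17, 10.57 and 10.60 at 33 °C. The heat-shocked arrays lay below those at 33 °C in both lines without overlap. It fell by 1.56 in Q111 cells (2.96-fold lower, SE 0.27, adjusted p = 0.0011) and by 1.43 in Q7 cells (2.70-fold lower, SE 0.27, adjusted p = 0.00276). Its other probe set gave larger differences, -2.19 in Q111 cells and -2.29 in Q7 cells (SE 0.40, adjusted p = 0.00147 and 0.00169). With the actin covariate the first value in Q7 cells was -0.77 (adjusted p = 0.595).

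Lamb1, the beta chain of most embryonic laminins, stood at 9.87, 9.19 and 9.32 in heat-shocked Q111 cells, against 10.49, 10.97 and 11.10 in Q111 cells at 33 °C. In Q7 cells the log2 levels were 9.84, 9.54 and 9.81 after heat shock, against 11.14, 11.87 and 11.49 at 33 °C. The arrays of the 2 temperatures did not overlap in either line. Heat shock lowered it by a log2 difference of -1.40 in Q111 cells (SE 0.24, adjusted p = 0.00122) and -1.77 in Q7 cells (SE 0.24, adjusted p = 0.000446). Of its other probe sets, 2 gave log2 differences of -1.69 and -1.52 in Q111 cells and -1.79 and -1.70 in Q7 cells, all called. The remaining Lamb1 probe set lay in the background range on all arrays, with 0.21 in Q111 cells and -0.47 in Q7 cells, and was not called.

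Lamb2, the beta chain found at the neuromuscular synapse and in the kidney filter, gave log2 levels of 9.31, 8.73 and 8.35 in heat-shocked Q111 cells, against 10.27, 10.73 and 10.51 in Q111 cells at 33 °C. Q7 cells had 8.75, 8.46 and 8.78 after heat shock, against 9.85, 10.68 and 9.98 at 33 °C. Again no heat-shocked array reached a 33 °C array of its line. The log2 difference was -1.70 in Q111 cells (3.26-fold lower, SE 0.27, adjusted p = 0.00071) and -1.50 in Q7 cells (2.83-fold lower, SE 0.27, adjusted p = 0.00222).

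The alpha chains carry the main cell-binding domains of laminins. Lama4, an alpha chain of vessel walls, stood at 7.66, 7.64 and 7.71 in heat-shocked Q111 cells, against 8.91, 8.84 and 8.90 in Q111 cells at 33 °C. In Q7 cells it read 4.92, 6.19 and 5.15 after heat shock, against 4.77, 4.81 and 5.12 at 33 °C, where all 3 arrays lay in the background range. Heat shock lowered it by a log2 difference of -1.21 in Q111 cells (SE 0.27, adjusted p = 0.0045), and the difference in Q7 cells was 0.52 (SE 0.27, adjusted p = 0.195). Relative to the gene median the Q111 value was -0.49 (adjusted p = 0.214), and with the actin covariate it was -1.24 (adjusted p = 0.059). A second Lama4 probe set had all 4 group means in the background range and gave -1.08 in Q111 cells (adjusted p = 0.00942) and 0.14 in Q7 cells (adjusted p = 0.768).

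Lama5, an alpha chain of mature epithelial and vessel basement membranes, stood at 8.66, 8.41 and 8.04 in heat-shocked Q111 cells, against 8.43, 9.52 and 9.13 in Q111 cells at 33 °C. Q7 cells had 9.60, 9.49 and 9.79 after heat shock, against 9.74, 10.94 and 10.44 at 33 °C. Arrays of the 2 temperatures overlapped in both lines. The log2 difference was -0.65 in Q111 cells (SE 0.33, adjusted p = 0.128) and -0.75 in Q7 cells (SE 0.33, adjusted p = 0.126). It passed the threshold without Q111 33 °C replicate 1 (-0.95 in Q111 cells, adjusted p = 0.0439) and without Q7 33 °C replicate 1 (-1.06 in Q7 cells, adjusted p = 0.0388), and the Q111 value was 0.07 relative to the gene median. A second Lama5 probe set was called lower in Q111 cells (-1.65, SE 0.39, adjusted p = 0.00621) and gave -1.05 in Q7 cells (adjusted p = 0.0739). The third lay in the background range on all 12 arrays and was not called.

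Lama2, the alpha chain of muscle and peripheral nerve basement membranes, was the gene whose heat shock values pointed in opposite directions with levels above background in every group. It read 6.46, 7.26 and 7.76 in heat-shocked Q111 cells, against 6.44, 6.28 and 6.78 in Q111 cells at 33 °C. Q7 cells read 6.28, 6.82 and 6.89 after heat shock, against 7.09, 8.11 and 8.12 at 33 °C. The Q111 groups overlapped and the Q7 groups did not. The log2 difference was 0.66 in Q111 cells (SE 0.36, adjusted p = 0.16) and 1.38 relative to the gene median (adjusted p = 0.00974). With the first heat-shocked Q111 array left out it was 1.005 (adjusted p = 0.0389). In Q7 cells it fell by 1.11 (SE 0.36, adjusted p = 0.0437). That call was lost under 14 of 25 alternatives, among them each of 9 fits without 1 array, with adjusted p from 0.0545 to 0.158 in those 9.

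Nid1, a nidogen that joins laminin to collagen IV, stood at 9.91, 9.35 and 9.52 in heat-shocked Q111 cells, against 10.42, 10.16 and 10.14 in Q111 cells at 33 °C. Q7 cells had 9.33, 9.05 and 9.11 after heat shock, against 11.005, 11.046 and 10.537 at 33 °C. Neither pair of groups overlapped, and the gap was wider in Q7 cells. The log2 difference was -0.64 in Q111 cells (SE 0.19, adjusted p = 0.02). In Q7 cells it was -1.70 (3.25-fold lower, SE 0.19, adjusted p = 0.000131). The Q111 call was lost with the replicate number as a block (adjusted p = 0.0529), with heat-shocked Q111 array 2 left out (-0.52, adjusted p = 0.0647) and with Q111 33 °C array 1 left out (-0.55, adjusted p = 0.0709), and relative to the gene median the sign turned, to 0.083 (adjusted p = 0.719). A second Nid1 probe set gave -0.30 in Q111 cells (adjusted p = 0.467) and -1.65 in Q7 cells (adjusted p = 0.0031), where its mean after heat shock, 5.05, was in the background range, so the size of that difference is uncertain. The third, in the background range throughout, was not called in either line.

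Nid2, the other nidogen, fell by 1.94 in Q111 cells (3.84-fold lower, SE 0.32, adjusted p = 0.000926) and by 1.84 in Q7 cells (3.57-fold lower, SE 0.32, adjusted p = 0.00194). Its log2 levels were 7.86, 7.48 and 6.86 in heat-shocked Q111 cells, against 8.98, 9.23 and 9.81 in Q111 cells at 33 °C. They were 6.81, 5.80 and 6.49 in heat-shocked Q7 cells, against 7.94, 8.44 and 8.22 in Q7 cells at 33 °C. No heat-shocked array reached a 33 °C array of its line.

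Hspg2, which encodes perlecan, stood at 9.51, 9.01 and 9.41 in heat-shocked Q111 cells, against 9.91, 10.93 and 10.13 in Q111 cells at 33 °C. Q7 cells had 9.37, 9.40 and 9.46 after heat shock, against 9.91, 10.41 and 9.94 at 33 °C. The groups did not overlap in either line. The log2 difference was -1.01 in Q111 cells (SE 0.25, adjusted p = 0.00892). With the replicate block its adjusted p was 0.0515, and relative to the gene median the difference was -0.29 (adjusted p = 0.319). In Q7 cells it was -0.68 (SE 0.25, adjusted p = 0.0787), with adjusted p = 0.0245 without Q111 33 °C replicate 2. A second perlecan probe set was called lower in both lines, at -2.08 in Q111 cells (SE 0.24, adjusted p = 0.000117) and -1.66 in Q7 cells (SE 0.24, adjusted p = 0.000682).

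Agrn, whose product clusters acetylcholine receptors at the neuromuscular junction, read 9.18, 9.01 and 8.94 in heat-shocked Q111 cells, against 10.28, 10.57 and 10.45 in Q111 cells at 33 °C. Q7 cells read 10.64, 10.62 and 10.82 after heat shock, against 11.42, 11.36 and 11.18 at 33 °C. The 4 groups formed 4 separate ranges, with heat-shocked Q111 cells lowest and Q7 cells at 33 °C highest. Heat shock gave a log2 difference of -1.39 in Q111 cells (2.62-fold lower, SE 0.14, adjusted p = 4.83e-05). In Q7 cells it was -0.63 (1.54-fold lower, SE 0.14, adjusted p = 0.0073), or -0.28 relative to the gene median (adjusted p = 0.182). A second agrin probe set lay in the background range and was not called in either line as deposited.

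**Figure D2:**
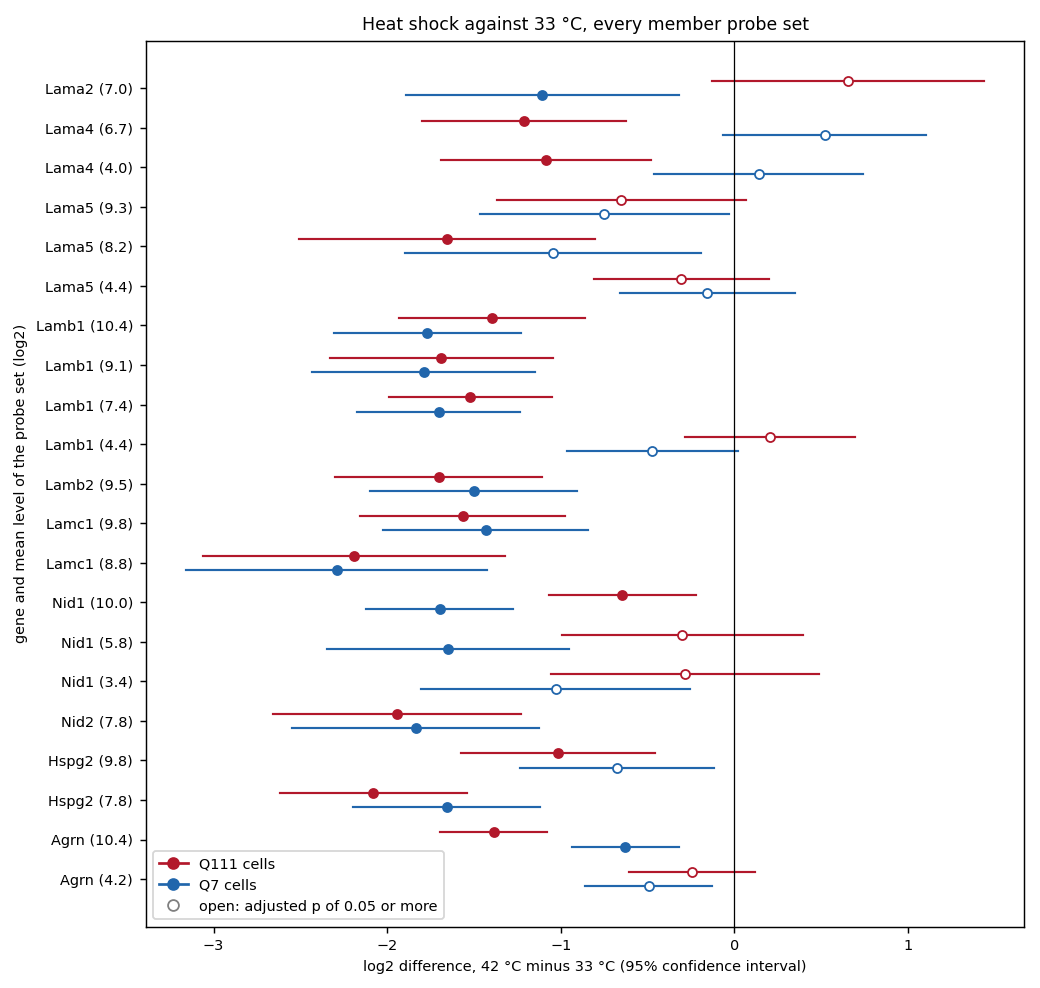
Log2 difference of 42 °C minus 33 °C for all 21 probe sets in Q111 cells (red) and Q7 cells (blue), with 95% confidence intervals; filled points passed an adjusted p of 0.05, and the number beside each gene is the probe set's mean log2 level. All 14 called values in Q111 cells and all 12 in Q7 cells are negative as deposited. Relative to the median of all genes, 3 are called higher in Q111 cells, beside 62.6% of all probe sets. On that scale 6 values in Q111 cells turn from negative to positive, those of all 3 Nid1 probe sets, 2 of Lama5 and 1 of Agrn.

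Whether the lines responded differently to heat shock was asked of the difference between their 2 heat shock effects (Q111 minus Q7). It was called for 1 of the 21 probe sets, that of Lama4, beside 2.07% of all probe sets called lower and 0.611% higher. For Lama4 it was -1.73 (SE 0.38, adjusted p = 0.0388). Lama4 averaged 4.90 in Q7 cells at 33 °C, in the background range, so a fall there could not be measured reliably. Its heat-shocked Q7 arrays read 4.92, 6.19 and 5.15. The call was lost under 15 of 24 alternatives, with adjusted p between 0.0105 and 0.141 over all of them, and 10 of the 12 fits that leave out 1 array were among the 15 (adjusted p 0.0511 to 0.0953). For Lama2 the difference was 1.76 (SE 0.51, adjusted p = 0.0975), and 2.11 without Q111 heat shock replicate 1 (adjusted p = 0.0395). For Nid1 it was 1.05 (SE 0.27, adjusted p = 0.0681), and for Agrn -0.76 (SE 0.20, adjusted p = 0.0714). When only the brightest probe set of each gene was tested, Lama4, Nid1 and Agrn passed. For Lamb1, Lamb2, Lamc1 and Nid2 the differences were 0.37, -0.20, -0.13 and -0.11, with 95% confidence intervals of -0.39 to 1.13, -1.05 to 0.64, -0.97 to 0.70 and -1.12 to 0.90. Hspg2 gave -0.34 (-1.13 to 0.45) and -0.42 by its second probe set, and the 3 Lama5 probe sets gave 0.10, -0.61 and -0.15. The remaining probe sets gave -1.22 for Lama4 (adjusted p = 0.133), 1.35 and 0.74 for Nid1, 0.10, 0.18 and 0.68 for Lamb1, 0.10 for Lamc1 and 0.25 for Agrn, and were not called.

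Between the lines at 33 °C, Lama4 was higher in Q111 cells, and Agrn and Lama5 were lower. Of the 21 probe sets, 2 were called higher (both of Lama4) and 2 lower (1 each of Lama5 and Agrn), beside 3.16% of all probe sets called higher and 3.62% lower. Without Q111 heat shock replicate 3 the count was 7. Same-numbered arrays of the 2 lines at 33 °C deviated together, and with the number as a block in these 2 groups 3 probe sets were called higher and 10 lower, beside 6.41% and 6.92% of all probe sets. Every Q111 array lay above every Q7 array for 3 probe sets and below for 10, beside 10.7% and 11.8% of all probe sets. The Lama4 levels given above averaged 8.89 in Q111 cells, with Q7 cells at 4.90, a log2 difference of 3.99 (SE 0.27, adjusted p = 3.76e-06). Since the Q7 arrays were in the background range, Lama4 was at least 13.4-fold higher in Q111 cells, taking the end of that range as the Q7 level. The call held in all 26 alternatives, with log2 differences from 2.86 to 4.09. The second Lama4 probe set gave 1.74 (adjusted p = 0.00206), at levels in the background range. Endothelial markers averaged between 3.88 and 3.96 in the Q111 arrays at 33 °C and between 3.79 and 3.99 in those of Q7 cells. All 7 were in the background range. Fibroblast and pericyte markers averaged between 8.34 and 8.51 in the Q111 arrays and between 7.999 and 8.38 in the Q7 arrays. Thy1 and Rgs5 were in the background range in both lines. Of these 7 markers, 1 was called higher in Q111 cells and 1 lower, beside 3.16% and 3.62% of all probe sets. Opposite differences can cancel in such an average. Pdgfra had a mean of 10.61 in Q111 cells and 8.18 in Q7 cells, and Cspg4 7.48 and 9.05. The part of either marker list in the Lama4 result was not tested.

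Agrin was lower in Q111 cells at 33 °C by a log2 difference of -0.89 (1.85-fold, SE 0.14, adjusted p = 0.00205), with every Q111 array below every Q7 array. Lama5 had a log2 difference of -1.35 (2.55-fold lower, SE 0.33, adjusted p = 0.0287). That call was lost without any of 4 single arrays: Q7 33 °C replicate 2 (-1.07, adjusted p = 0.127) or 3 (-1.32, adjusted p = 0.0869), and Q111 33 °C replicate 1 (-1.05, adjusted p = 0.11) or 3 (-1.40, adjusted p = 0.0742). With the replicate block the Lama5 value had an adjusted p of 0.000537, and the second Lama5 probe set, -1.29 with adjusted p = 0.0831 without the block, had 0.000741. The actin covariate left it at -1.37 (adjusted p = 0.0605).

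Other genes at 33 °C missed the threshold and passed it with the block or with other settings, among them Nid2 and Lama2 when only 1 probe set per gene was tested (adjusted p = 0.0419 and 0.0398). Nid2 was 1.14 higher in Q111 cells (2.20-fold, SE 0.32, adjusted p = 0.0653, or 0.00601 with the block), and no Q111 array overlapped the Q7 arrays. It also passed without Q7 heat shock replicate 2 (adjusted p = 0.0419) or Q111 heat shock replicate 3 (adjusted p = 0.0327), which change only the estimated spread. Lama2 differed by -1.27 (SE 0.36, adjusted p = 0.0622, or 0.01 with the block), with Q111 arrays all below the Q7 arrays. It passed without Q7 33 °C replicate 1 (-1.61, adjusted p = 0.0231) and without Q111 heat shock replicate 1 (adjusted p = 0.0335) or 3 (adjusted p = 0.0307). Lamb1 differed by -0.65 (adjusted p = 0.193, or 0.0292 with the block) and Nid1 by -0.62 (adjusted p = 0.0907, or 0.0319 with the block). The brighter Lamc1 probe set gave -0.46 (adjusted p = 0.522, or 0.0549 with the block) and the other -0.83 (adjusted p = 0.353, or 0.0225 with the block). Nid1 passed without Q7 33 °C replicate 3 (-0.79, adjusted p = 0.0409). Lamb2 differed by 0.33 (95% confidence interval -0.26 to 0.93) and Hspg2 by 0.24 (-0.32 to 0.80), not called with or without the block. The other Lamb1 probe sets gave -0.63, -0.62 and -0.56, with adjusted p of 0.0279, 0.0259 and 0.0465 with the block and none called without it. The other Nid1 probe sets gave -0.84 and -0.44, the second Hspg2 probe set 0.13, the second Agrn probe set -0.37 and the third Lama5 probe set 0.11, called neither with nor without it.

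After heat shock Lama4 was again higher in Q111 cells, and Agrn and Lama5 lower. Of the 21 probe sets, 1 was called higher in Q111 cells and 3 lower, beside 4.73% and 10.7% of all probe sets. The Q111 arrays lay above all Q7 arrays for 6 probe sets and below for 3, beside 13.0% and 18.6%. Lama4 was 2.25 higher in Q111 cells (4.76-fold, SE 0.27, adjusted p = 0.000272), and its call held in all 25 alternatives. Agrn had a log2 difference of -1.65 (3.13-fold lower, SE 0.14, adjusted p = 2.97e-05). Lama5 gave -1.25 (2.39-fold lower, SE 0.33, adjusted p = 0.0246) and its second probe set -1.90 (3.72-fold lower, SE 0.39, adjusted p = 0.00726). The first of these was lost without Q7 heat shock replicate 1 (-1.27, adjusted p = 0.0719) or 3 (-1.17, adjusted p = 0.0934) or Q111 heat shock replicate 3 (-1.09, adjusted p = 0.0714). Nid2 gave 1.03 (SE 0.32, adjusted p = 0.0544), and 1.30 without Q111 heat shock replicate 3 (adjusted p = 0.022). Lamc1 gave -0.59 (adjusted p = 0.166), and -0.86 without Q111 heat shock replicate 1 (adjusted p = 0.0476). Lamb1, Lamb2 and Hspg2 gave -0.28, 0.13 and -0.10, with intervals of -0.81 to 0.26, -0.47 to 0.73 and -0.66 to 0.46, and relative to the gene median the Lamb1 and Hspg2 signs turned. Nid1 gave 0.43 (adjusted p = 0.158), or 0.81 relative to the gene median (adjusted p = 0.0162). Lama2 gave 0.49 (adjusted p = 0.375) and the second Lama4 probe set 0.52 (adjusted p = 0.227). The other probe sets gave -0.53, -0.44 and 0.12 for Lamb1, -0.73 for Lamc1, 0.52 and 0.31 for Nid1, -0.29 for Hspg2, -0.12 for Agrn and -0.04 for the third of Lama5, and were not called.

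**Figure D3:**
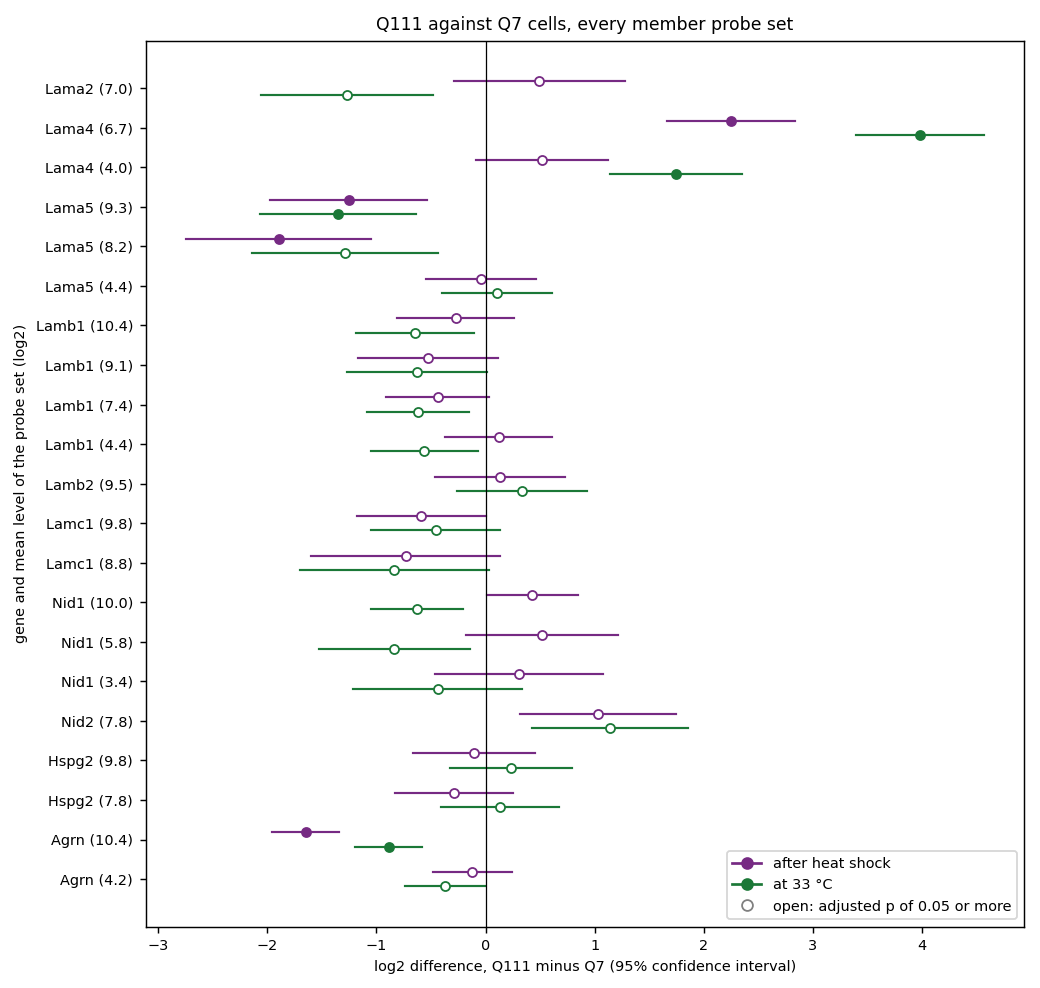
Log2 difference of Q111 minus Q7 cells for all 21 probe sets after heat shock (purple) and at 33 °C (green), with 95% confidence intervals; filled points passed an adjusted p of 0.05 without a replicate block, and the number beside each gene is the probe set's mean log2 level. By brightest probe set, Lama4 lies at 2.25 after heat shock and 3.99 at 33 °C, and Lama5 and Agrn lie on the other side of 0 at both temperatures. The dimmest Lama5 probe set lies at 0.11 at 33 °C. Relative to the median of all genes, some values after heat shock turn sign. They are those of the brightest Lamb1 probe set, both of Hspg2, the dimmest of Lama5 and the dim one of Agrn.

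The laminin chains outside the 10 genes were near or in the background range. Of 5 listed, 4 were measured, Lama1, Lama3, Lamb3 and Lamc3, and their brightest probe sets had group means between 4.34 and 5.60. In Q111 cells 1 was called higher after heat shock, Lama3 (0.62, adjusted p = 0.034), and 1 lower, Lamc3 (-0.64, adjusted p = 0.0336, but 0.09 relative to the gene median). Neither was called with the replicate block, and 0 of 4 were called in Q7 cells. Relative to the gene median 3 of the 4 were called higher and 0 lower in Q111 cells (median 0.80), beside 62.6% and 9.86% of all probe sets.

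The basement membrane collagens and other proteins of the sheet included 8 of 18 genes called lower after heat shock in Q111 cells and 9 in Q7 cells, beside 22.3% and 14.1% of all probe sets, and the collagen IV chain Col4a2 had the greatest change of the list in both lines. In Q111 cells 1 of 18 genes was called higher and 8 lower (median -0.74), and in Q7 cells 0 were higher and 9 lower (median -0.80). Relative to the gene median these counts were 7 higher and 4 lower in Q111 cells, beside 62.6% and 9.86% of all probe sets. In Q7 cells they were 2 higher and 7 lower, beside 21.1% and 8.47%. Col4a2 had a log2 difference of -2.50 in Q111 cells (SE 0.32, adjusted p = 0.000194) and -2.55 in Q7 cells (SE 0.32, adjusted p = 0.000261). Col18a1, the precursor of endostatin, gave -1.74 in Q111 cells (adjusted p = 0.000247) and -1.70 in Q7 cells (adjusted p = 0.000427). Col4a4 fell in Q7 cells to the background range (at least 2.24-fold lower, adjusted p = 0.0021), and 2 other probe sets gave -0.12 and -0.97. Fras1, an epithelial basement membrane protein, gave 2.33 in Q111 cells (adjusted p = 0.00158), with a mean at 33 °C of 4.44, in the background range, so its size is uncertain, while its other probe set gave -0.15. At 33 °C, 2 of the 18 were higher in Q111 cells than in Q7 cells and 5 lower, beside 3.16% and 3.62% of all probe sets. Fbln1, a fibulin that binds nidogen, was at least 18.5-fold higher in Q111 cells (adjusted p = 1.82e-06), with the Q7 arrays in the background range, and of its other probe sets 1 gave a log2 difference of 4.89 and 1 gave 0.22. Col4a6 was lower by a log2 difference of -3.25 (adjusted p = 8.92e-07) and Col18a1 by -2.90 (adjusted p = 1.41e-05). Of the 7 fibroblast and pericyte markers, 1 was called higher and 4 lower after heat shock in each line. Beside them stand 19.8% higher and 22.3% lower of all probe sets in Q111 cells, and 10.0% and 14.1% in Q7 cells. The part of these markers in the counts of the list was not tested.

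A list of 21 genes for laminin and agrin receptors also held sarcoglycans, which belong to the dystroglycan complex. In heat-shocked Q111 cells 3 of the 21 were called higher and 6 lower (median 0.07), beside 19.8% and 22.3% of all probe sets. Of probe sets above the background range, 19.2% were called higher and 34.1% lower. In Q7 cells 1 of the 21 genes was higher and 4 lower (median -0.31), beside 10.0% and 14.1% of all probe sets. With the replicate block the Q111 counts were 1 higher and 2 lower, beside 18.3% of all probe sets called lower. Relative to the gene median they were 12 higher and 1 lower, beside 62.6% and 9.86% of all probe sets. In Q7 cells they were 4 and 4 on that scale, beside 21.1% and 8.47%. Dag1, the dystroglycan gene, gave -1.59 in Q111 cells (SE 0.19, adjusted p = 0.00011) and -1.54 in Q7 cells (SE 0.19, adjusted p = 0.000195). Itga9, an integrin alpha chain, was at least 2.82-fold higher after heat shock in Q111 cells (adjusted p = 0.000561), with the 33 °C arrays in the background range. Lrp4, the agrin receptor of muscle, gave -1.33 in Q111 cells (adjusted p = 0.00157). In Q7 cells Sgcd, a sarcoglycan of the dystroglycan complex, gave -2.14 (adjusted p = 0.00312) and Itga3 -1.12 (adjusted p = 0.00156). At 33 °C the laminin-binding integrin chains Itga7, Itga3 and Itga6 were lower in Q111 cells, by log2 differences of -2.76 (adjusted p = 3.43e-05), -1.65 (adjusted p = 0.000226) and -1.29 (adjusted p = 0.00056). They were the 3 lower of 21, with 1 higher, Sdc2 (0.78, adjusted p = 0.00361), beside 3.62% of all probe sets lower and 3.16% higher.

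Enzymes that build the laminin-binding glycan of dystroglycan were lower in 8 of 12 measured genes in Q111 cells after heat shock, with 0 higher (median -1.18), beside 22.3% and 19.8% of all probe sets. In Q7 cells 3 were lower and 1 higher (median -0.53), beside 14.1% and 10.0%. Relative to the gene median 4 were higher and 5 lower in Q111 cells, beside 62.6% and 9.86% of all probe sets. In Q7 cells 3 were higher and 1 lower on that scale, beside 21.1% and 8.47%. The difference between the lines' heat shock effects was called for 0 of the 12 (median -0.65). Pomk, the O-mannose kinase of this pathway, gave -3.17 in Q111 cells (SE 0.33, adjusted p = 5.87e-05) and -1.66 in Q7 cells (SE 0.33, adjusted p = 0.00382). A second Pomk probe set gave -3.07 and -1.59, and a dim one gave 0.56 and -0.06. Gmppb, which makes the mannose donor, gave -2.43 in Q111 cells (adjusted p = 0.000677). Pomt2, an O-mannosyltransferase, was at least 4.03-fold lower in heat-shocked Q111 cells, where it was in the background range (adjusted p = 0.000184). In Q7 cells Pomgnt1 gave -0.69 (adjusted p = 0.0205) and B3galnt2 0.63 (adjusted p = 0.00517). At 33 °C, 0 of the 12 were called between the lines, beside 3.16% of all probe sets higher and 3.62% lower. With the replicate block 1 was called lower, beside 6.92%.

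Enzymes that build and edit heparan sulfate, the sugar chain of perlecan and agrin, were lower after heat shock in 10 of 18 measured genes in Q111 cells, with 1 higher (median -0.77), beside 22.3% and 19.8% of all probe sets. In Q7 cells 5 were lower and 1 higher (median -0.45), beside 14.1% and 10.0%. Relative to the gene median the counts were 5 higher and 7 lower in Q111 cells, beside 62.6% and 9.86% of all probe sets. In Q7 cells they were 1 higher and 4 lower, beside 21.1% and 8.47%. Ext1, a polymerase of the chain, gave -2.65 in Q111 cells (SE 0.19, adjusted p = 9.19e-06) and -2.31 in Q7 cells (SE 0.19, adjusted p = 2.65e-05), while a dimmer Ext1 probe set gave 0.42 (adjusted p = 0.316) and -0.47 (adjusted p = 0.347). Xylt2, which starts the chain, was at least 2.73-fold lower in heat-shocked Q111 cells (adjusted p = 0.000282) and was called lower in Q7 cells (adjusted p = 0.00438), with a mean after heat shock of 4.77; both heat-shocked means were in the background range. Ndst2, a sulfotransferase, gave -2.26 in Q111 cells (adjusted p = 0.000949), and Ext2, the partner of Ext1, -1.19 in Q7 cells (adjusted p = 0.0394), where 2 dim Ext2 probe sets gave 0.11 and -0.27. B4galt7, which adds the second sugar of the linker, had a called difference between the heat shock effects (-1.19), the only one among the 18 brightest probe sets as deposited. That list had 0 called lower with further quantile normalization, with gene-median centring (1 higher) and with the actin covariate. Dimmer probe sets of B4galt7 (-1.24, adjusted p = 0.0467), Sulf2 (-1.16, adjusted p = 0.0222), Hs2st1 (-1.08, adjusted p = 0.0367) and Ndst3 (2.27, adjusted p = 0.00546) were also called. At 33 °C, 1 gene was higher in Q111 cells and 3 lower, beside 3.16% and 3.62% of all probe sets. Sulf1, which removes sulfate from the finished chain, was 3.74 higher (adjusted p = 3.58e-06), and Hs3st3b1 and Hs6st1, both sulfotransferases, were lower by log2 differences of -2.74 (adjusted p = 0.000672, with 3 dim probe sets not called) and -1.30 (adjusted p = 0.0209).

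**Figure D4:**
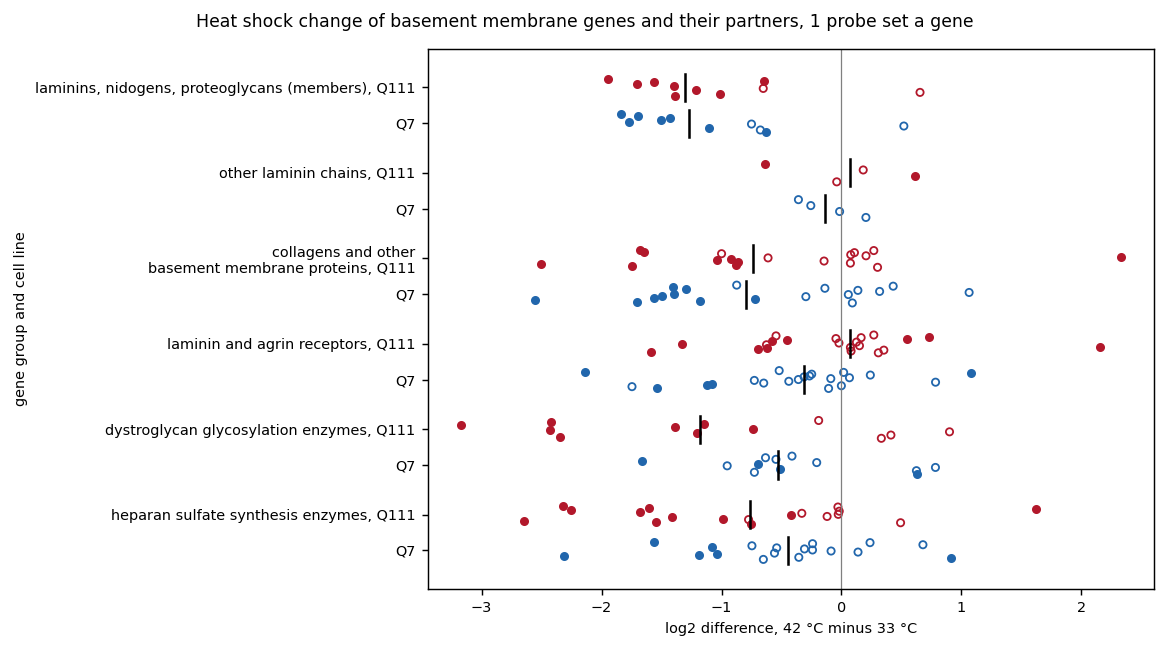
Log2 difference of 42 °C minus 33 °C for 1 probe set a gene, in Q111 cells (red) and Q7 cells (blue), for the 10 genes and 5 lists of partners; filled points passed an adjusted p of 0.05 and the black bar is the median. As deposited the 10 genes have 8 called lower in Q111 cells and 7 in Q7 cells. Relative to the median of all genes the lists of other laminin chains, collagens and receptors have more genes called higher than lower in Q111 cells. On that scale 62.6% of all probe sets are called higher in Q111 cells.

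Over the 12 arrays the genes whose centred levels lay closest to those of Lamc1, of 18183 compared, were Camk2d, Ssh2, Pcdh18, Ptgfrn and Fblim1, with root mean square differences of 0.13, 0.22, 0.22, 0.22 and 0.22 on the log2 scale. Among the other 9 members Lamb1 was closest at 0.41 and Nid1 next at 0.44, and Lama4 was farthest at 2.00. Ranked against the 18183 compared genes these stood at 402, 582 and 17841, so many genes outside the group were closer to Lamc1 than any member. Agrn and Lamb2 were at 0.56, Hspg2 at 0.61, Lama5 at 0.79, Nid2 at 0.94 and Lama2 at 1.02. All points share the same arrays and normalization.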

How the data were processed

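The values are log2 expression levels that the authors made with RMA, per the submitters' processing notes, and deposited as a table of 45101 probe sets on 12 arrays; depth has no meaning for arrays, and their number limits precision. The genome build behind the annotation is not given in the sources used here. Groups came from the sample titles. After 64 control probe sets were left out, limma 3.58.1 (R 4.3.3) was fitted to 45037 probe sets with a mean for each of 4 groups over all 12 arrays (8 residual degrees of freedom), with eBayes and Benjamini-Hochberg adjustment over all probe sets in each of 5 comparisons. Probe sets were named through GEO's platform annotation, with symbols updated by gene ID: 34945 name 1 gene, 932 name several and 9160 have no name here, and none was named from a probe set with several. The 10 genes, the partner lists and the markers were chosen with earlier results of these data known. All 10 genes were named in each comparison with all their probe sets; for each list, the text names up to 3 genes with the largest called change in each heat shock comparison and at 33 °C, genes behind counts of 5 or fewer, and the 5 genes most like Lamc1. B4galt7 and Sdc2 were named because they are behind a count of 5 or fewer. Of 80 list genes 73 were measured, and 43 of 47 markers. The fit was tested on simulated data.

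Alternatives were centring on the median of probe sets or genes, further quantile normalization, array weights, variance trends, a filter on low levels, 1 probe set or the mean per gene, only the groups compared, replicate blocks, the actin covariate, a stricter threshold, and leaving out each array. Gene-median centring and the blocks within 2 groups were added after seeing the data. The labels number arrays 1 to 3 in each group, without saying what a number shares. Correlations of same-numbered deviations were 0.422 to 0.616 between the lines at 33 °C, against -0.462 to -0.0886 for other numbers. Deviations from a group's own mean cancel within the group, so positive same-numbered values push the others negative as a whole. The gap between such ranges is therefore not separate support for a pairing. Between the temperatures in Q111 cells they were 0.118 to 0.304, against -0.317 to 0.197 for other numbers. Both same-numbered ranges lay above 0.1, so both comparisons were treated as paired. In Q111 cells the ranges overlap, so the pairing and the block results that rest on it are uncertain. In Q7 cells same-numbered values were -0.393 to 0.118, and after heat shock -0.511 to 0.357. These were not treated as paired.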

Additional observations from a re-analysis of the deposited data

Results flagged for a closer look

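The difference between the heat shock effects of the 2 lines was called for Lama4, at -1.73 (Q111 minus Q7, log2 scale, SE 0.38, adjusted p = 0.0388 in limma). The Q7 arrays at 33 °C were all in the background range, and 1 of the 3 heat-shocked Q7 arrays, at 6.19, lay well above the other two.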

How the results depend on the processing

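The number of the 21 probe sets called was 14 for heat shock in Q111 cells and 12 in Q7 cells, and it was 9 and 0 with the actin covariate. With array weights it was 13 in Q111 cells and 18 in Q7 cells. Those weights ran from 0.201 for heat-shocked Q111 array 3 to 5.51 for heat-shocked Q7 array 3. For the difference of the heat shock effects the count of 1 became 2 with the filter on low levels, 5 with array weights, 2 with the replicate block over all arrays, and 0 with the covariate or at an adjusted p of 0.01. With 1 probe set per gene, 3 genes were called in place of 1. For the lines at 33 °C the count of 4 became 8 with array weights and 13 with the replicate block in those 2 groups, and 3 genes became 5 with 1 probe set per gene or with the mean of all. Leaving out each array gave 13 to 15 for heat shock in Q111 cells, 11 to 14 in Q7 cells, 0 to 1 for the difference of effects, 3 to 7 for the lines at 33 °C and 3 to 6 after heat shock. Under gene-median centring 6 heat shock values in Q111 cells turned sign, the Nid1 probe sets to 0.083, 0.43 and 0.44, those of Lama5 to 0.075 and 0.42, and the dim Agrn probe set to 0.48 (adjusted p = 0.0272). The cause was not tested. With the replicate block over all arrays, Lama2 was called higher after heat shock in Q111 cells (adjusted p = 0.044) and in the difference of effects (adjusted p = 0.0284), as was Nid1 in that difference (adjusted p = 0.0483), and Lama4 was not (adjusted p = 0.0504). Probe sets in the background range limit what can be said of Lama4 in Q7 cells.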
